A study of Homo sapiens with 14 samples.

Results

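The core PRC1 sites on H3K27me3 described here are the RING1B peaks of control DU145 cells that share at least 1 bp with a control peak of BMI1, of RING1A and of H3K27me3. They were chosen by these control peak positions alone and number 903 of the 5155 control RING1B peaks, 17.5% with a Clopper-Pearson 95% interval of 16.5 to 18.6%. The other control RING1B peaks form 3 classes used for comparison. Of these, 2560 lay on BMI1 and RING1A without H3K27me3, and 410 lay on H3K27me3 but lacked BMI1 or RING1A. The remaining 1282 lacked H3K27me3 and also lacked BMI1, RING1A or both.

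Polycomb repressive complexes keep genes silent through chromatin. PRC2, of which EED is a core subunit that binds methylated lysine 27, writes trimethylation on histone H3 lysine 27 (H3K27me3). PRC1 carries RING1A or RING1B as the ubiquitin ligase that modifies histone H2A (uH2A), and BMI1 is a partner that raises the ligase activity. CBX proteins of canonical PRC1 bind H3K27me3, which ties the PRC1 complex to sites that PRC2 has marked.

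The series is ChIP-seq of DU145, an established human prostate cancer line, and asks how a loss of EED touches the Polycomb complexes. EED knockdown cells carry a stable construct that the labels call sh3, and control cells carry a scramble construct, both selected with puromycin. Each cell line gave 1 library per antibody for RING1B, BMI1, RING1A, H3K27me3, EED and 2 antibodies to uH2A, a rabbit and a mouse one, 14 libraries in all. Only 1 knockdown construct was used for all 7 knockdown libraries, so a construct and a loss of EED cannot be told apart, and the labels do not say whether either line is a clone.

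With 1 library per group no difference between cell lines has a replicate check, and no p-value is given. Intervals are at 95%, cover counting error only, and treat peaks as independent, which peaks of 1 cluster are not. A difference of shares is called here where its Newcombe interval leaves out 0. Depth per library is unknown, so a site without a knockdown peak is a site at which none was listed, not one shown to lack the protein. The lists held between 1372 peaks (EED in knockdown cells, against 13082 in control cells) and 56011 (RING1A in control cells), and every antibody had fewer peaks in knockdown than in control cells.

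The lists fall into 2 library sets. The EED and uH2A lists come with one culture description and hold no peak of height 0, whereas the RING1B, BMI1, RING1A and H3K27me3 lists come with another and all hold such peaks. In these 4 antibodies' lists every peak on chromosomes 22, X and Y has a height of 0 and no peak elsewhere does, so heights there carry no rank, and a restriction by height leaves these chromosomes out. All 4 lists of the rule belong to the second set, and the 3 control lists outside the rule to the first, so set and antibody cannot be told apart. A further property of the lists touches every result: 38 windows of 100 kb held control peaks over 10 times their library's median height for at least 2 antibodies other than RING1B. Together with their neighbours these 100 high-signal windows, none of them on chromosomes 22, X or Y, held 296 core sites (32.8%), against 9.49% of the core PRC1 peaks without H3K27me3. Values without them are given beside the results that they touch, and their part in the remaining results was not tested.

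The rule used the control lists of its 4 antibodies, so their values at the sites are a description. Core sites had a median length of 250 bp, against 175 bp for core PRC1 peaks without H3K27me3. Their median RING1B height lay at the 84.0th percentile of the control RING1B list. The BMI1 and RING1A peaks at the sites were tall within their own lists, with median heights at the 95.7th and 98.2nd percentiles, and the H3K27me3 peaks less so, at the 74.2nd. A single control H3K27me3 peak covered 474 sites (52.5%) from end to end, and the median overlap was 175 bp. The 79 sites with a RING1B height of 0 are the 13, 12 and 54 sites on chromosomes 22, X and Y, and they enter the percentiles at the low end.

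The edge of the rule was sharp in distance for most peaks. Of the 903 sites, 7 shared only 25 bp, the smallest overlap, with an H3K27me3 peak. On the other side, 22 of the 2560 core PRC1 peaks without H3K27me3 lay within 100 bp of one and 237 within 1000 bp, and their median gap was 22012.5 bp. The tallest site just inside, chr14:47931251-47931400 (hg19), had a RING1B height of 71 and an H3K27me3 height of 37.75 in control cells, and the only knockdown peak on it was of the mouse uH2A antibody, of height 36. The nearest peak just outside, chr1:149208351-149208450, had a RING1B height of 55.25 and touched its H3K27me3 neighbour with a gap of 0 bp, and its only knockdown peak was of BMI1, of height 70.31.

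RING1B itself was listed again in EED knockdown cells more often at core sites than at core PRC1 peaks without H3K27me3, though less often than at RING1B peaks on H3K27me3 that lack BMI1 or RING1A, described further on. Of the 903 sites, 478 (52.9%, 49.6 to 56.2%) overlapped a knockdown RING1B peak, against 7.66% of the core PRC1 peaks without H3K27me3 and a background of 20.7% over all control RING1B peaks. The difference was 45.3 points (41.8 to 48.7). Outside high-signal windows it was 31.0 points, with 38.4% of 607 core sites, against 7.38% of the 2317 peaks without H3K27me3. Inside those windows 82.8% of 296 core sites had a knockdown RING1B peak, against 10.3% of 243.

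BMI1, the partner that raises PRC1 activity, was the antibody most often listed at core sites in knockdown cells. Its knockdown peaks lay on 770 sites (85.3%), against 64.4% of the core PRC1 peaks without H3K27me3, a difference of 20.9 points (17.8 to 23.8), with a background of 62.9%. RING1A, the second ligase, had knockdown peaks at 673 sites (74.5%), against 47.5%, a difference of 27.03 points (23.5 to 30.4), with a background of 50.2%. Outside high-signal windows these differences were 16.7 points for BMI1 and 26.6 points for RING1A. Pooled over height and length, all 3 PRC1 proteins were thus listed in knockdown cells more often where control cells had H3K27me3. Within classes of length or height, given further on, the BMI1 and RING1A differences were not called in every class.

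H3K27me3, the mark that PRC2 writes, was listed in knockdown cells at 697 core sites (77.2%, 74.3 to 79.9%), against 36.7% of the core PRC1 peaks without it in control cells and a background of 45.1%. The 2 classes were set apart by control H3K27me3, so the difference of 40.5 points (37.1 to 43.7) follows a split on the same mark. The second comparison group, RING1B peaks on H3K27me3 that lacked BMI1 or RING1A, shares that mark. Against these 410 peaks the H3K27me3 share did not differ beyond its interval, at 77.2% of core sites and 78.0% of the others, a difference of -0.86 points (-5.56 to 4.14).

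Against the same 410 peaks the PRC1 proteins differed in direction. RING1B knockdown peaks were less frequent at core sites, 52.9% against 61.5%, a difference of -8.53 points (-14.2 to -2.74), and outside high-signal windows 38.4% against 55.6%, a difference of -17.2 points. BMI1 was more frequent at core sites by 8.93 points (4.35 to 13.8) and RING1A by 15.0 points (9.52 to 20.6), but these 2 differences follow a split on the same antibodies, since the 410 peaks were set apart by a missing control peak of one of them. The RING1B difference changed with the peaks of height 0 on chromosomes 22, X and Y, which made up 8.75% of core sites and 24.4% of the other class. Without them it was -1.29 points and no longer called, and among peaks at least as tall as their list's median it was 6.88 points in the other direction. Among peaks of 150 to 250 bp the RING1A difference turned to -1.67 points, the BMI1 difference of 4.65 points was not called, and H3K27me3 was less frequent at core sites by a called difference of -11.1 points.

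**Figure D1:**
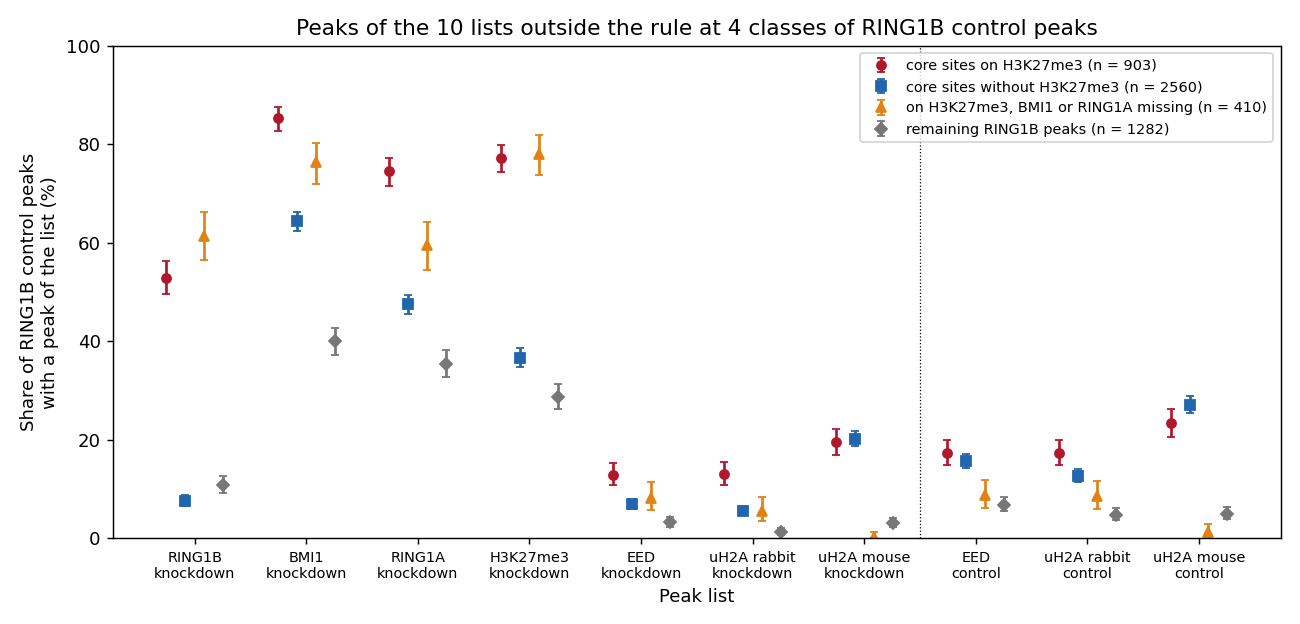
Share of control RING1B peaks in each class (y axis, %) that overlap a peak of each of the 10 lists outside the rule (x axis); knockdown lists are left of the dotted line, and bars are Clopper-Pearson 95% intervals. RING1B in knockdown cells separates both H3K27me3 classes (52.9% of core sites and 61.5% of those lacking BMI1 or RING1A) from the core PRC1 peaks without the mark (7.66%). The mouse uH2A antibody is nearly absent from peaks on H3K27me3 that lack BMI1 or RING1A (0.244% in knockdown and 1.22% in control cells).

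EED, the PRC2 subunit that was knocked down, had few peaks on the core sites in either cell line. Knockdown EED peaks lay on 117 sites (13.0%), against 6.95% of core PRC1 peaks without H3K27me3, with a background of 7.2%, and the difference was 6.004 points (3.71 to 8.53). Control EED peaks lay on 156 sites (17.3%), against 15.7%, with a background of 13.2%, a difference of 1.61 points (-1.13 to 4.55) that was not called. Outside high-signal windows the control difference was called, at 4.27 points (0.91 to 7.92). Among peaks of 150 to 250 bp the knockdown difference was 2.73 points and not called. Against all other control RING1B peaks together, control EED was more frequent at core sites by 4.95 points (2.41 to 7.72). A listed control EED peak was thus found at a minority of core sites, as over the whole control RING1B list. The EED and H3K27me3 lists belong to different library sets.

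The 2 uH2A antibodies, which read the mark PRC1 writes, gave unlike differences. The rabbit antibody had knockdown peaks at 118 core sites (13.1%), against 5.63% of core PRC1 peaks without H3K27me3 and a background of 5.84%, a difference of 7.44 points (5.19 to 9.94). Its control peaks lay on 157 sites (17.4%), against 12.7%, with a background of 11.2%. The mouse antibody had knockdown peaks at 176 sites (19.5%), against 20.3%, with a background of 14.3%, a difference of -0.78 points (-3.71 to 2.32). Its control peaks lay on 211 sites (23.4%), against 27.1%, with a background of 18.9%, and that difference of -3.74 points (-6.92 to -0.41) changed to 0.74 points outside high-signal windows. A rabbit uH2A peak was thus more frequent at core sites in both cell lines over all lengths, but among peaks of 150 to 250 bp its differences of 1.52 points in knockdown and 0.58 points in control cells were not called.

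Mouse uH2A peaks were more frequent at core sites than at peaks on H3K27me3 that lack BMI1 or RING1A. Among peaks on H3K27me3, 19.5% of core sites had a mouse uH2A peak in knockdown cells, against 0.244% of those lacking BMI1 or RING1A, a difference of 19.2 points (16.5 to 21.96). In control cells the shares were 23.4% and 1.22%, a difference of 22.1 points (19.1 to 25.1). Peak length moved with these classes, with a median of 250 bp at core sites, against 162.5 bp, and its part was not tested for this contrast beyond peaks of 150 to 250 bp, where the mouse uH2A differences stayed called. Over all lengths rabbit uH2A was also more frequent at core sites, by 7.46 points in knockdown and 8.85 points in control cells. EED was more frequent by 4.66 and 8.50 points. Some of these differences were not called among peaks of 150 to 250 bp. The parts of BMI1 and RING1A were not told apart.

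Where a core site had a control peak of EED or uH2A, the knockdown list often had one too. Of the 156 core sites with control EED, 100 (64.1%, 56.0 to 71.6%) had a knockdown EED peak, against 37.2% of the 401 core PRC1 peaks with EED but without H3K27me3, with a background of 43.5%. For rabbit uH2A the share was 58.6% of 157 sites, against 40.2% of 326 peaks, with a background of 43.7%. For mouse uH2A it was 76.3% of 211 sites, against 64.0% of 694 peaks, with a background of 64.3%. Sites without a control peak of these antibodies seldom had a knockdown one, at 2.28% for EED, 3.49% for rabbit uH2A and 2.17% for mouse uH2A. Among core PRC1 peaks without H3K27me3 the shares were 1.34%, 0.58% and 4.02% in the same order.

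EED and the 2 uH2A antibodies met at a minority of core sites. None of the 3 had a control peak at 657 sites (72.8%), against 69.5% of core PRC1 peaks without H3K27me3. Of the peaks on H3K27me3 lacking BMI1 or RING1A 88.3% had none, and of the remaining control RING1B peaks 87.9%, so sites with none were the majority in every class. All 3 had a peak at 118 core sites (13.1%), against 8.91%, 0.488% and 0.468% in the same order. A uH2A peak without EED was found at 90 core sites (9.97%), against 14.9%, 2.93% and 5.30%. The 246 sites with at least 1 of the 3 marks were spread unevenly over chromosomes: 40 of the 43 sites on chromosome 14 had one, but 47 of 202 on chromosome 1 and 3 of 63 on chromosome 8.

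Sites with an EED or uH2A control peak were not those that most often kept RING1B. In knockdown cells 39.4% of the 246 marked sites had a RING1B peak, against 58.0% of the 657 unmarked sites, a difference of -18.6 points (-25.5 to -11.3). H3K27me3 was listed at 68.3% of marked and 80.5% of unmarked sites, a difference of -12.2 points (-18.9 to -5.86), and BMI1 at 80.5% and 87.1%. RING1A did not differ beyond its interval, at 74.8% of marked and 74.4% of unmarked sites. Outside high-signal windows the RING1B difference was -19.3 points and the H3K27me3 difference -11.1 points, both called, and the BMI1 difference of -6.82 points was not called. Chromosome moved with this split: 40 of the 43 core sites on chromosome 14 were marked, against 47 of 202 on chromosome 1. The part of chromosome 14 in these differences was not tested.

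The 4 antibodies of the rule were often listed together in knockdown cells. All 4 had a knockdown peak at 359 core sites (39.8%, 36.5 to 43.0%), against 5.195% of core PRC1 peaks without H3K27me3, with a background of 14.1% over all control RING1B peaks. None of the 4 had one at 67 core sites (7.42%), against 25.8%, with a background of 26.9%. Peaks on H3K27me3 that lack BMI1 or RING1A were close to core sites in this, with all 4 at 37.3% (32.6 to 42.2%). The next most frequent pattern was BMI1, RING1A and H3K27me3 without RING1B, at 201 sites, followed by RING1B, BMI1 and H3K27me3 without RING1A, at 89. Outside high-signal windows all 4 were listed at 28.8% of core sites, against 5.01% of core PRC1 peaks without H3K27me3 and 31.7% of the peaks lacking BMI1 or RING1A. BMI1 was in each of the 3 most frequent patterns, and RING1B was the member most often missing. The same held over all control RING1B peaks, where BMI1 was the most listed of the 4 (62.9%) and RING1B the least (20.7%). The knockdown lists differ in size, with 6257 peaks for BMI1 and 1739 for RING1B.

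**Figure D2:**
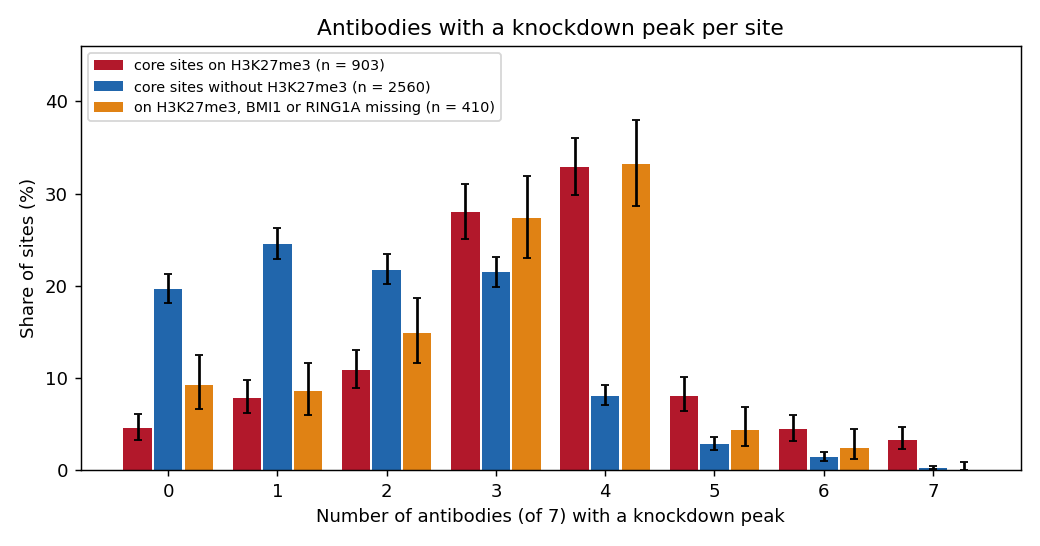
Share of sites (y axis, %) by the number of the 7 antibodies with a knockdown peak on the site (x axis), for core sites on H3K27me3, core PRC1 peaks without it, and peaks on H3K27me3 that lack BMI1 or RING1A, with Clopper-Pearson 95% intervals. Core sites are most frequent at 4 antibodies (32.9%), as are the peaks on H3K27me3 that lack BMI1 or RING1A (33.2%), and the peaks without H3K27me3 at 1 (24.6%).

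Over all 7 antibodies, 41 core sites (4.54%) had no knockdown peak and 30 (3.32%) had one of each. Of the 2560 core PRC1 peaks without H3K27me3, 503 (19.6%) had none and 6 (0.234%) had all 7. Of the 410 peaks lacking BMI1 or RING1A, 38 (9.27%) had none and 0 had all 7. Of the 1282 remaining control RING1B peaks, 580 (45.2%) had none and 0 had all 7. Outside high-signal windows 37 core sites had none and 11 had all 7. Peaks of all 14 lists met at 27 core sites, of which 10 lay outside those windows. By the rule no other control RING1B peak can have peaks of all 14 lists.

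Coverage by knockdown peaks was highest at the centre of the core sites. At the centre of the site, RING1B covered 45.96% of the 903 sites in knockdown cells and, by the rule, all of them in control cells, while 5000 bp downstream it covered 9.41% in knockdown and 13.95% in control cells. H3K27me3 covered 70.3% of the centres in knockdown and 90.7% in control cells, and 17.2% and 19.6% at 5000 bp. Among knockdown peaks that overlapped a site, the median distance between the centre of the peak and that of the site was 25 bp for BMI1, RING1A and H3K27me3, 37.5 bp for RING1B and EED, and 87.5 bp for rabbit uH2A. When peaks within 1000 bp of a site also counted, in the rule as well as in the shares, EED was listed at 21.3% and rabbit uH2A at 19.7% of the then 1378 sites.

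**Figure D3:**
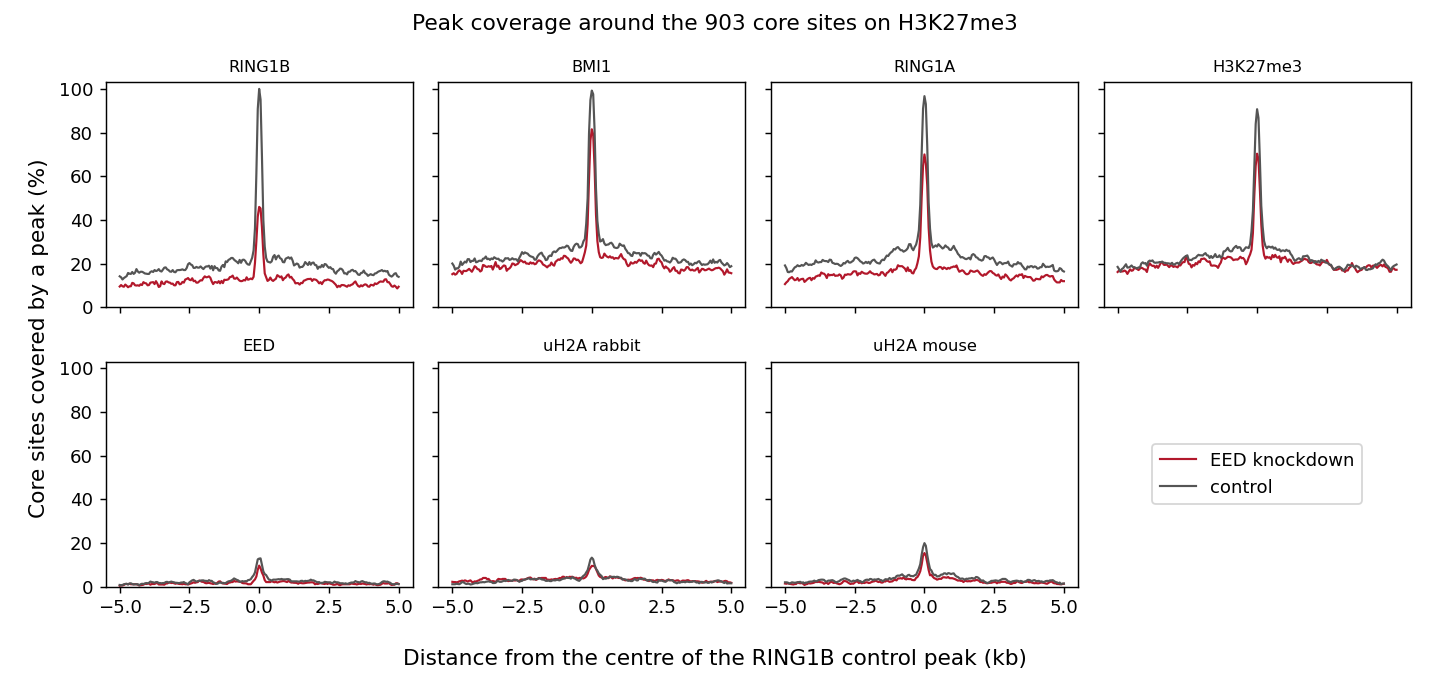
Share of the 903 core sites covered by a peak (y axis, %) by distance from the centre of the RING1B control peak (x axis, kb), per antibody, in EED knockdown and control cells. In the 4 upper panels both lines have a narrow maximum at the centre, 45.96% in knockdown cells for RING1B and 70.3% for H3K27me3, and fall to between 9.41 and 19.6% at 5000 bp downstream; the control maxima of the upper panels are set by the rule.

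Seen from the knockdown lists, between 1.08% and 29.7% of the peaks lay on core sites, most for RING1B. They carried 517 of 1739 knockdown RING1B peaks (29.7%), 768 of 4205 H3K27me3 peaks (18.3%), 695 of 4072 RING1A peaks (17.1%) and 790 of 6257 BMI1 peaks (12.6%). They carried 9.55% of the EED peaks, 2.68% of the mouse uH2A peaks and 1.08% of the rabbit uH2A peaks. Within each knockdown list the peaks on core sites were tall, with median heights at the 72.1st percentile for RING1B up to the 94.3rd for mouse uH2A, against the 43.2nd to 49.6th for the peaks off the sites.

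Control peaks of the partners were kept at core sites far more often than elsewhere in the genome, kept meaning overlapped by a knockdown peak of the same antibody. Of the 878 control H3K27me3 peaks at core sites 77.4% were kept, against 1.93% of those elsewhere, with a background of 3.81% over the whole list. The difference of 75.5 points (72.6 to 78.2) was 67.8 points outside high-signal windows. Of 882 RING1A peaks 75.9% were kept, against 2.92%, with a background of 4.07%, and of 861 BMI1 peaks 85.0% were kept, against 18.4%, with a background of 21.1%. Peaks elsewhere include those away from any RING1B peak, and other RING1B peaks came closer to core sites. In knockdown cells H3K27me3 was listed at 78.0% of the 410 RING1B peaks on H3K27me3 lacking BMI1 or RING1A. BMI1 was listed at 64.4% and RING1A at 47.5% of the 2560 core PRC1 peaks without H3K27me3. Height moved with this contrast, since the partner peaks at core sites had median ranks between the 74.2nd and 98.2nd percentiles and those elsewhere between the 48.1st and 49.7th, and its part was not tested here.

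The windows of 100 kb around the sites held most of the H3K27me3 that was listed in knockdown cells. The 261 windows with a core site span 26.1 Mb, and 75.5% of the knockdown H3K27me3 length lay in them, against 8.90% of the control H3K27me3 length. In these windows H3K27me3 peaks covered 676.0 kb in knockdown cells (2842 peaks of 238 bp on average) and 928.5 kb in control cells (2988 peaks of 311 bp), so that the knockdown length was 72.8% of the control length. Everywhere else it was 2.30% of the control length. In the 727 windows with other RING1B peaks only it was 34.3%, with 1168 peaks of 166 bp in knockdown and 1916 of 296 bp in control cells.

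The PRC1 proteins were concentrated in the same windows. Of the knockdown length of each list, 84.7% of RING1B, 70.2% of RING1A and 59.5% of BMI1 lay there, against 65.5%, 13.7% and 31.8% of the control length of these antibodies. For EED the shares were 38.1% of the knockdown and 8.25% of the control length, and for mouse uH2A 15.5% and 5.67%. Rabbit uH2A had about the same share in both cell lines, 4.68% and 4.15%. Of these windows, 215 lay outside high-signal windows. Their shares were still taken of the whole list length, high-signal windows included, so the concentration outside those windows was not tested. On that basis the RING1B share was 49.6% in knockdown cells and 46.9% in control cells. For RING1A the shares there were 51.5% of the knockdown and 11.1% of the control length, and for BMI1 43.1% and 24.6%. The 215 windows held 52.2% of the H3K27me3 length of knockdown cells and 7.41% of that of control cells.

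**Figure D4:**
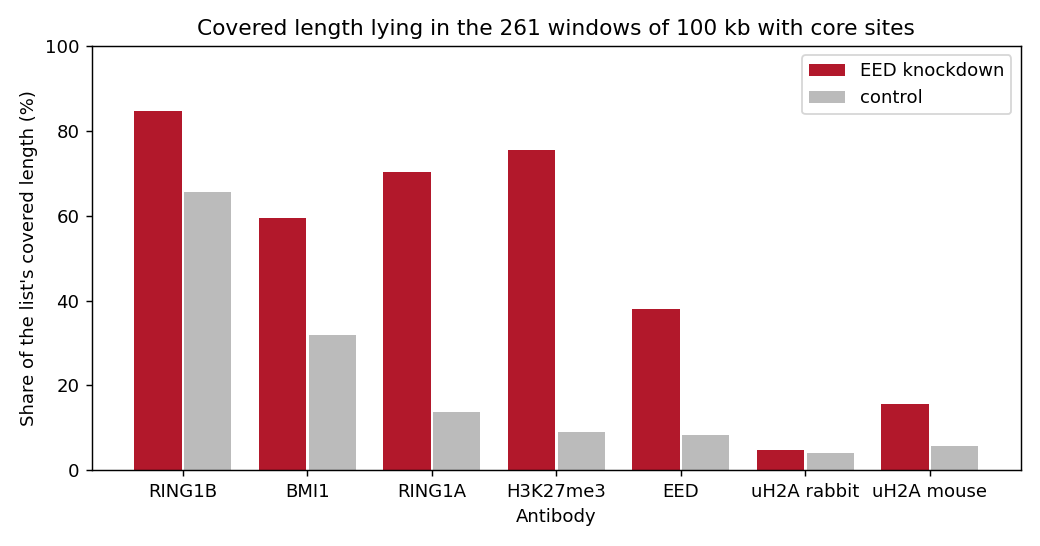
Share of the covered length of each list (y axis, %) that lies in the 261 windows of 100 kb with a core site, by antibody (x axis), for EED knockdown and control cells, 1 library each. H3K27me3 shows the widest gap between the cell lines, 75.5% in knockdown and 8.90% in control cells.

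Single windows went both ways. H3K27me3 covered more bases in knockdown than in control cells in 115 of the 261 windows, fewer in 132 and the same in 14, and 35 windows had no knockdown H3K27me3. The direction differed with the H3K27me3 surroundings in control cells. In the 63 windows with at least 5000 bp of control H3K27me3, which hold 477 core sites (52.8%), the knockdown length was 294.9 kb and the control length 673.7 kb (43.8%). In the other 198 windows it was 381.1 kb in knockdown and 254.8 kb in control cells (149.6%). Windows were split by their own control length, so a lower ratio in the first group is partly set by the split. RING1B was listed in knockdown cells at 56.8% of sites in the first group and 48.6% of those in the second, and H3K27me3 at 80.9% and 73.0%.

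Core sites were clustered, within a control RING1B list that was itself uneven. Its 5155 peaks lay in 988 windows, with 81 in chr15:20400001-20500000, of which 1 was a core site. How far the clustering of core sites follows that of the list was not tested. Of the 261 windows, 43 held at least 5 sites and together 552 of them (61.1%), 23 held at least 10 and together 420 (46.5%), and 142 held 1 site each. Chromosome 1 carried 202 core sites, chromosome 2 carried 108, and chromosome 13 none of its 6 control RING1B peaks. Chromosome 14 carried 793 control RING1B peaks, of which 43 (5.42%) were core sites on H3K27me3. On chromosome 16, 64 of 68 sites lay in high-signal windows, and on chromosome 8 only 1 of 63 did. None of the 54 sites on chromosome Y did, where the heights of 0 kept BMI1, RING1A and H3K27me3 from marking a window.

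Sites in clusters were listed again in knockdown cells more often than lone ones. RING1B was listed at 34.5% (26.7 to 42.9%) of the 142 lone sites, 31.6% of the 209 sites in windows of 2 to 4, 68.9% of the 132 sites in windows of 5 to 9, and 64.8% (60.0 to 69.3%) of the 420 sites in windows of 10 or more. H3K27me3 was listed at 54.2%, 63.6%, 86.4% and 88.8% in the same order, and BMI1 at 70.4%, 76.6%, 93.2% and 92.1%. EED did not follow this order, with 16.2% of lone sites and 10.2% in windows of 10 or more. Longer and taller peaks moved with clustering: the median length was 175 bp at lone sites and 300 bp in windows of 10 or more, where 47.9% of sites were in high-signal windows, against 13.4% of lone ones. Outside high-signal windows RING1B was listed at 24.4% of lone sites and 47.5% of those in windows of 10 or more.

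The difference to core PRC1 peaks without H3K27me3 held within classes of length for RING1B and H3K27me3. For RING1B it was 13.99 points among peaks of 75 to 100 bp, 24.9 points at 125 to 175 bp, 51.0 points at 200 to 275 bp and 49.4 points at 300 bp or more, each called. For H3K27me3 it was 15.3, 30.5, 32.2 and 16.2 points, each called. For BMI1 the 2 shorter classes gave 7.62 points (-3.09 to 18.9) and 7.14 points (-0.34 to 14.1), not called. For RING1A the shortest class gave 8.53 points (-0.53 to 19.4), also not called. For BMI1 the pooled 20.9 points was thus larger than the difference in any class of length, which ranged from 3.18 to 13.0 points.

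Height also separated the classes, and within 4 classes of equal rank range in control RING1B height the difference was called in all 4 for RING1B and H3K27me3, in 3 for RING1A and in 2 for BMI1. The tallest class held 548 of the 903 core sites. There RING1B was listed in knockdown cells at 70.3% of core sites, against 21.6% of 538 core PRC1 peaks without H3K27me3, a difference of 48.7 points (43.3 to 53.6), and H3K27me3 at 93.8%, against 75.5%. In the same class BMI1 differed by 5.25 points (2.65 to 8.03), and RING1A turned to -3.26 points (-7.29 to 0.78), with 85.2% of core sites against 88.5%. In the 3 lower classes RING1B differed by 4.40 to 51.1 points and H3K27me3 by 8.18 to 41.2 points, each called, the highest of these in the lowest class, which holds the sites of height 0. BMI1 was not called in the second class (-2.05 points) or the third (5.18 points).

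The window with the most core sites, chr1:228700001-228800000, held 45 of its 50 control RING1B peaks as core sites, within 228744526 to 228781825. In knockdown cells BMI1 lay on 38 of them, RING1A on 40, H3K27me3 on 30 and RING1B on 17. H3K27me3 covered 7625 bp of the window in knockdown and 23275 bp in control cells. None of the 45 sites had an EED or uH2A peak in either cell line, which allows a share of such sites of up to 6.67%, with 3 counts as the limit that a count of 0 allows. The pattern of peaks repeated along the stretch: the autocorrelation of peak coverage over lags of 2000 bp and more was highest at 4475, 4450 or 8925 bp in 7 of the 8 lists of RING1B, BMI1, RING1A and H3K27me3. In RING1B of knockdown cells, with 19 peaks, it was highest at 18000 bp, within 100 bp of a multiple of 4475 bp.

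A second stretch of chromosome 1, chr1:161411351-161441975, held 33 core sites of a median length of 425 bp and lay in a high-signal window. BMI1 was listed at all 33 sites in knockdown cells, H3K27me3 at 31, RING1A at 29 and RING1B at 13, and EED and uH2A at none in either cell line, which allows a share of up to 9.09%. All 8 lists had their highest autocorrelation between 7225 and 7400 bp, up to 0.52 for RING1A in control cells. Both stretches thus hold a pattern of several peaks that repeats along the sequence, at sites with PRC1 and H3K27me3 in the lists and no EED or uH2A.

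**Figure D5:**
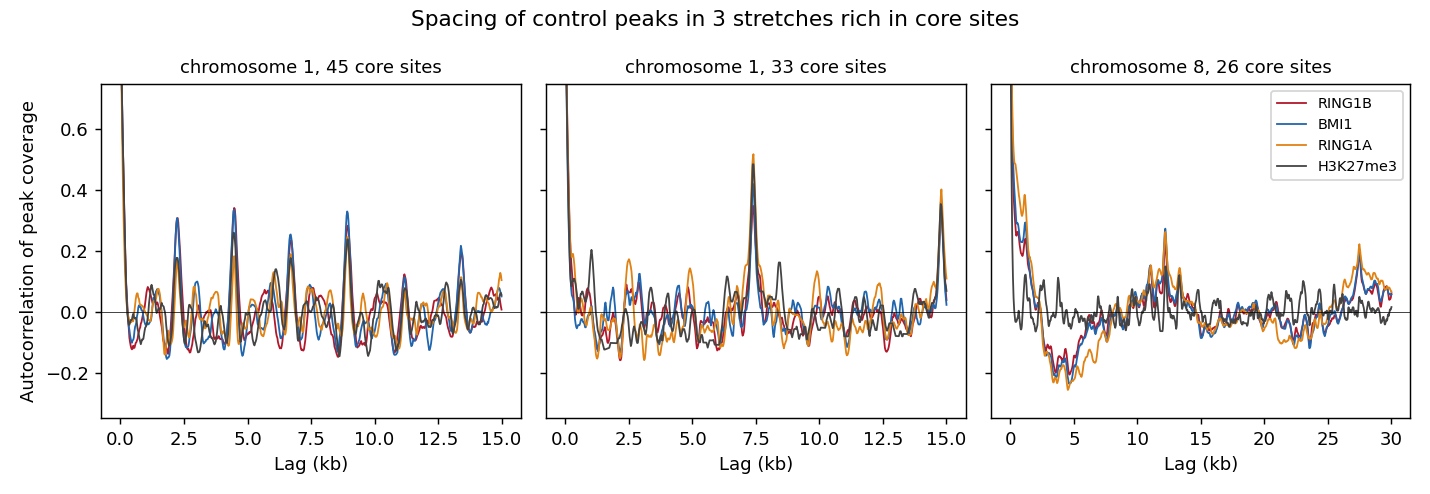
Autocorrelation of control peak coverage (y axis) by lag (x axis, kb) for RING1B, BMI1, RING1A and H3K27me3 in 3 stretches with 45, 33 and 26 core sites. The maxima near 4475 and 8925 bp in the first stretch and near 7400 bp in the second are shared by the 4 antibodies; the third, on chromosome 8, was chosen after its values were seen.

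The other windows with the most core sites lie at chr16:46400001-46500000 with 35 sites, chrY:58800001-58900000 with 23, and chr2:91700001-91800000, chr2:92300001-92400000 and chr4:49300001-49400000 with 22 each. The chromosome 16 window had H3K27me3 at 35 and RING1B at 34 sites in knockdown cells and RING1A at 15, with 20775 bp of H3K27me3 in knockdown and 14950 bp in control cells. The chromosome Y window differed from all of these in that its 23 core sites, like all 52 control RING1B peaks there, have a height of 0. RING1B and H3K27me3 were listed there at all 23 sites in knockdown cells and RING1A at 8, and H3K27me3 covered 53325 bp in knockdown and 40025 bp in control cells. In the first of the chromosome 2 windows, RING1B was listed at 4 of 22 sites in knockdown cells, RING1A at 21 and mouse uH2A at 18, and EED had control peaks at 12. On chromosome Y the highest autocorrelation was at 3575 bp in 3 lists and within 125 bp of a multiple of it, at 7200, 21325, 21350 and 28475 bp, in 4 others. On chromosome 16 all 8 lists had it between 2000 and 2325 bp, at the lower limit of the search, and in the windows on chromosomes 2 and 4 no lag was shared by most lists.

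On chromosome 8, in a stretch chosen after its values were seen, H3K27me3 covered more bases around core sites in knockdown than in control cells. At chr8:86700001-86800000, with 16 core sites, H3K27me3 covered 22125 bp in knockdown and 3850 bp in control cells. In the next window, chr8:86800001-86900000, with 10 core sites, it covered 15300 bp in knockdown and 3175 bp in control cells. BMI1 and RING1A were listed at all 26 sites in knockdown cells, H3K27me3 at 24 and RING1B at 18. None of the 26 had an EED or uH2A peak in either cell line, which allows a share of up to 11.5%. Over the stretch 7 of the 8 lists had their highest autocorrelation at 12175 to 12250 bp, and RING1A in control cells at 39650 bp.

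The 5 core sites with the tallest RING1B control peaks all lie on chromosome 10, at chr10:42596851-42597275, chr10:42599451-42600175, chr10:42395801-42396200, chr10:42384901-42385300 and chr10:42388151-42388550, in high-signal windows. At the first, RING1B had a height of 6758 in knockdown cells and of 6818 in control cells, and H3K27me3 of 17756 in knockdown and 4548 in control cells, heights that are not normalized between libraries. Peaks of all 14 lists lay on 4 of the 5, and the fourth lacked mouse uH2A in both cell lines. The EED peak on the first had a height of 420.6 in knockdown and 190.9 in control cells, at the 99.5th and 99.9th percentiles of their lists. These sites thus ranked high in every list that had a peak there, whatever the antibody.

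Outside high-signal windows the tallest sites carried a narrower set of antibodies. They lie at chr12:127650426-127650650, chr8:46844051-46844475, chr8:46849001-46849950, chr1:228757976-228758450 and chr7:56441101-56441550. All 5 had knockdown peaks of RING1B, BMI1, RING1A and H3K27me3, and none had an EED or mouse uH2A peak in either cell line. The only uH2A peak on them was of the rabbit antibody in knockdown cells, of height 33, on the third site. On the chromosome 12 site RING1B ranked at the 86.6th percentile of the knockdown and the 98.1st of the control list, and RING1A at the 97.6th and 99.9th.

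The tallest sites that no knockdown list overlapped were of moderate height. They lie at chr5:97912376-97912525, chr7:23514301-23514450, chr5:811551-811700, chr9:69787651-69787775 and chr9:41937726-41937850, are 125 or 150 bp long, and have RING1B control heights of 60 to 67.25, at the 48.1st to 60.5th percentiles. H3K27me3 ranked higher than RING1B at these 5 sites in control cells, from the 51.3rd percentile at the last to the 99.3rd at the fourth. The second site alone had a control EED peak, of height 38.65, and none had uH2A.

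Of the 10 sites outside high-signal windows that were picked for having peaks of all 14 lists, the 5 with the tallest RING1B lie at chr7:157939651-157941750, chr11:93970826-93971725, chr9:66454726-66456625, chr1:148853276-148854625 and chr4:27576-27825. Of these, 4 are wide, from 900 to 2100 bp. In control cells their EED peaks ranked between the 96.4th and 99.8th percentiles and their mouse uH2A peaks between the 99.4th and 99.9th, whereas their RING1B peaks ranked between the 91.5th and 97.0th. In knockdown cells mouse uH2A ranked between the 95.5th and 99.8th percentiles and RING1B between the 43.2nd and 84.2nd.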

How the data were processed

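ChIP DNA of EED knockdown and control DU145 cells was sequenced with 1 library per antibody and cell line. The submitters' processing notes name Bowtie and the hg19 build. Settings, read totals and the use of an input library are not given in the sources used. Each library has 1 list, deposited by the authors. The lists carry the name of the HPeak caller and give each peak's position, its length in bp (another value of the authors' caller) and a height, taken as the authors' signal, not normalized between libraries. Its definition was inferred from the values, and a height of 0 on chromosomes 22, X and Y of the RING1B, BMI1, RING1A and H3K27me3 lists gave those peaks the lowest rank. A negative score was not used. Chromosomes 23 and 24 were assumed to be X and Y.

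Overlap meant at least 1 bp in common, counted with Python 3.11.15, numpy 2.4.6 and pandas 2.3.3, checked against bedtools and tested on simulated lists. Shares carry Clopper-Pearson and differences Newcombe 95% intervals (scipy 1.17.1). Heights were ranked within their own list only. Depth per library is unknown, and the number of peaks, from 1372 to 56011, limits the precision. Autocorrelation used peak coverage on a 25-bp grid. H3K27me3-dense windows and high-signal windows, the members and every list were chosen with earlier results of these data known. Regions named are the 5 tallest by RING1B control height, over all windows, outside high-signal windows, and there without knockdown peaks, the 5 in most lists, the richest windows, and the sites at the edge of the rule. No hg19 annotation or genome was used, so genes and sequences at the sites were not analysed here.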

Additional observations from a re-analysis of the deposited data

How the results depend on the processing

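No paired analysis was possible because each group has 1 library and no result comes from a fit over samples. The knockdown differences of core sites to core PRC1 peaks without H3K27me3 kept their direction and stayed called under all 11 alternatives for RING1B (26.2 to 50.7 points), H3K27me3 (25.8 to 42.4), RING1A (17.02 to 31.5) and BMI1 (11.9 to 24.4). Depth per library is unknown and limits every share, since a list with fewer peaks can overlap fewer sites. Sites of 1 cluster are not independent, which makes the intervals too narrow. The stricter threshold and heights above 0 leave out chromosomes 22, X and Y, where the heights of the 4 lists of the rule are 0. Except where an alternative's own construction shows it, the cause of a change was not tested.

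The number of core sites was 1378 with peaks within 1000 bp counted as overlapping, 572 with RING1B peaks merged within 1000 bp and 517 at the stricter threshold, and 351, 362 and 261 under the 3 alternatives chosen after seeing the data: windows with fewer than 5 core sites, peaks of 150 to 250 bp, and the tallest peak per class and window. H3K27me3 length in knockdown cells was 43.2% of control in windows with fewer than 5 core sites.

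The share of core sites with a peak moved beyond its interval in 68 of 110 recomputed values. With an overlap of at least 50% these shares were 45.7% for RING1B, 79.2% for BMI1, 63.5% for RING1A, 69.5% for H3K27me3, 7.29% for EED, 9.49% for rabbit uH2A and 13.1% for mouse uH2A in knockdown cells, and 11.3% for EED, 11.8% for rabbit uH2A and 17.5% for mouse uH2A in control cells. Within 1000 bp these shares were 63.6% for RING1B, 90.9% for BMI1, 83.7% for RING1A, 85.5% for H3K27me3, 21.3% for EED, 19.7% for rabbit uH2A and 26.4% for mouse uH2A in knockdown cells, and 25.7% for EED, 24.9% for rabbit uH2A and 30.9% for mouse uH2A in control cells. With merged peaks these shares were 19.9% for EED, 15.7% for rabbit uH2A and 25.3% for mouse uH2A in knockdown cells, and 24.7% for EED, 23.6% for rabbit uH2A and 30.4% for mouse uH2A in control cells. Outside high-signal windows these shares were 38.4% for RING1B, 80.1% for BMI1, 68.9% for H3K27me3, 10.7% for rabbit uH2A and 22.9% for mouse uH2A in knockdown cells, and 19.9% for EED and 27.8% for mouse uH2A in control cells. At the stricter threshold the only such share was 59.6% for RING1B in knockdown cells. With the midpoint of the site inside the peak these shares were 45.96% for RING1B, 81.5% for BMI1, 70.0% for RING1A, 70.3% for H3K27me3, 9.63% for EED, 9.52% for rabbit uH2A and 15.4% for mouse uH2A in knockdown cells, and 12.8% for EED, 13.3% for rabbit uH2A and 19.9% for mouse uH2A in control cells. In windows with fewer than 5 core sites these shares were 32.8% for RING1B, 74.1% for BMI1, 66.1% for RING1A and 59.8% for H3K27me3 in knockdown cells, and 21.7% for EED, 21.7% for rabbit uH2A and 29.3% for mouse uH2A in control cells. Among peaks of 150 to 250 bp these shares were 48.9% for RING1B, 69.6% for RING1A, 8.01% for EED, 5.80% for rabbit uH2A and 12.7% for mouse uH2A in knockdown cells, and 11.05% for EED, 10.8% for rabbit uH2A and 15.7% for mouse uH2A in control cells. With the tallest peak per class and window these shares were 43.7% for RING1B, 79.3% for BMI1, 66.3% for H3K27me3, 21.1% for EED, 16.9% for rabbit uH2A and 24.5% for mouse uH2A in knockdown cells, and 27.6% for EED, 25.7% for rabbit uH2A and 32.95% for mouse uH2A in control cells.

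Against core PRC1 peaks without H3K27me3, most calls that changed were of EED or uH2A. The control mouse uH2A difference was of the other sign outside high-signal windows (0.74 points) and in windows with fewer than 5 core sites (2.21), and was no longer called with merged peaks (-0.30), on autosomes (-3.27) or with the tallest peak per window (-1.35). The knockdown mouse uH2A difference was newly called with an overlap of at least 50% (-3.38), at the stricter threshold (-4.66) and among peaks of 150 to 250 bp (-4.76). The control EED difference was newly called with merged peaks (6.83), outside high-signal windows (4.27), in windows with fewer than 5 core sites (6.23) and with the tallest peak per window (6.65). Among peaks of 150 to 250 bp the knockdown differences of EED (2.73) and rabbit uH2A (1.52) and the control difference of rabbit uH2A (0.58) were no longer called, and the last was not called with an overlap of at least 50% either (2.39).

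Against peaks on H3K27me3 lacking BMI1 or RING1A, the knockdown RING1B difference was of the other sign at the stricter threshold (6.88 points) and was no longer called with merged peaks (-0.27), with heights above 0 (-1.29), on autosomes (-1.93) or with the tallest peak per window (-6.32). The RING1A difference was of the other sign among peaks of 150 to 250 bp (-1.67) and no longer called at the stricter threshold (6.67). The BMI1 difference was no longer called at the stricter threshold (5.85), in windows with fewer than 5 core sites (3.83), among peaks of 150 to 250 bp (4.65) and with the tallest peak per window (7.98). The H3K27me3 difference was newly called with the midpoint inside the peak (-5.53), in windows with fewer than 5 core sites (-9.93) and among peaks of 150 to 250 bp (-11.1). The knockdown EED difference was no longer called with an overlap of at least 50% (0.0942), at the stricter threshold (3.15), with heights above 0 (4.196), with the midpoint inside the peak (2.81) or among peaks of 150 to 250 bp (2.37). Among the last peaks the knockdown rabbit uH2A difference (1.19) and the control EED difference (4.90) were not called either.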
